A study of Homo sapiens with 2 samples.

Results

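The genes examined here encode the proteins of the cytosolic ribosome. They were the symbols that match the naming of ribosomal proteins and that had 1 row of their own in the deposited table, with pseudogenes, S6 kinase genes and Y-linked copies left out. Of 82 such symbols in the table, 67 qualified, 42 named for the large and 25 for the small subunit, among 53188 symbols with a row of their own. The measurements came from HuH6, a human hepatoblastoma line, either parental (HuH6_WT) or with the kinase gene PIM3 knocked out by CRISPR/Cas9 (PIM3_KO), both untreated. Each group had 1 library of poly(A) RNA, so the differences lack replicates and carry no p-value. Whether the knockout cells were 1 clone or a pool is not given in the sources used here, and PIM3 loss cannot be told apart from any other change in the edited line.

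A ribosome holds 1 copy of nearly every ribosomal protein, and the cell makes these proteins in matched amounts to assemble with ribosomal RNA. Their mRNAs are among the most abundant in growing cells. In mammals most of them start with a C followed by a run of pyrimidines, the terminal oligopyrimidine (TOP) tract, through which LARP1 and the kinase mTOR control their translation. Free ribosomal proteins, above all RPL5 and RPL11 in their complex with 5S RNA, bind MDM2 and so link ribosome assembly to p53.

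Levels are given as FPKM, fragments scaled by transcript length and library size, as the authors deposited them. PIM3 itself was at 34.2 FPKM in the parental and 14.0 FPKM in the knockout library. Hepatoblastoma and hepatocyte markers were present, with GPC3 at 694 and 607 FPKM and APOB at 113 and 106 FPKM, although DLK1 was listed at 0 in both. Of the 10 markers that reached a mean of 1 FPKM, 4 were at least 2-fold higher in PIM3_KO, namely APOA1 (5201 and 12109 FPKM), TTR (270 and 2232 FPKM), ALB (0.520 and 9.18 FPKM) and AFP (1.19 and 70.1 FPKM), of which all but APOA1 stayed so under TPM. The part of this difference in those of the ribosomal protein genes was not tested. The blood markers HBA1, HBB and CD3E each averaged under 1 FPKM. None of 3 endothelial and 4 neuroblastoma markers reached it, and 2 of 4 fibroblast markers did, the higher being PDGFRB at 5.12 and 5.77 FPKM. Steps in the low values showed 1 read on a transcript of 1 kb to be worth 0.0353 FPKM in HuH6_WT and 0.0450 FPKM in the knockout library, which puts HuH6_WT at the greater depth. All values together summed to 787250 FPKM in HuH6_WT, while PIM3_KO reached 1086211 FPKM, or 1.38-fold more.

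Nearly all ribosomal protein genes had higher values in the knockout library. Of the 67 genes, 64 averaged 1 FPKM or more across the pair of libraries and are called measured here. Their median level was 1853 FPKM in HuH6_WT and 3681 FPKM in PIM3_KO. The difference was expressed as the log2 ratio of FPKM + 1, PIM3_KO over HuH6_WT, and 63 of the 64 ratios were above 0, as were 51.0% of the ratios of all 11256 genes measured. The median log2 ratio was 0.84, against 0.01 over all genes measured. In such bulk RNA, more cells of a kind and more RNA per cell cannot be told apart. At least 2-fold higher were 11 members, or 17.2%, against 6.89% of all genes, and 0 were at least 2-fold lower, against 4.58% of all genes. A 1.5-fold higher level was reached by 49 members, against 18.2% of all genes. All genes include many of low level, and of 286 other abundant coding genes, described below, 55 also passed 2-fold.

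These sizes depend on how the libraries are put on 1 scale. Bringing both libraries to an equal total (TPM) took the median of the members to 0.38 and that of all genes from 0.01 to -0.40, so that the members stood 0.83 above all genes before and 0.77 above them after rescaling. Under TPM 0 members remained at least 2-fold higher (2.87% of all genes), 11 were at least 1.5-fold higher (7.25% of all genes), and 51 of 64 ratios were above 0 (26.1% of all genes). The 13 members below 0 under TPM were RPL3, RPL4, RPL6, RPL7, RPL11, RPL14, RPL15, RPL24, RPL29, RPL41, RPLP0, RPSA and RPS27L. The direction of these 13, other than RPL14, therefore flips with the scaling, and that of the other 51 does not.

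**Figure D1:**
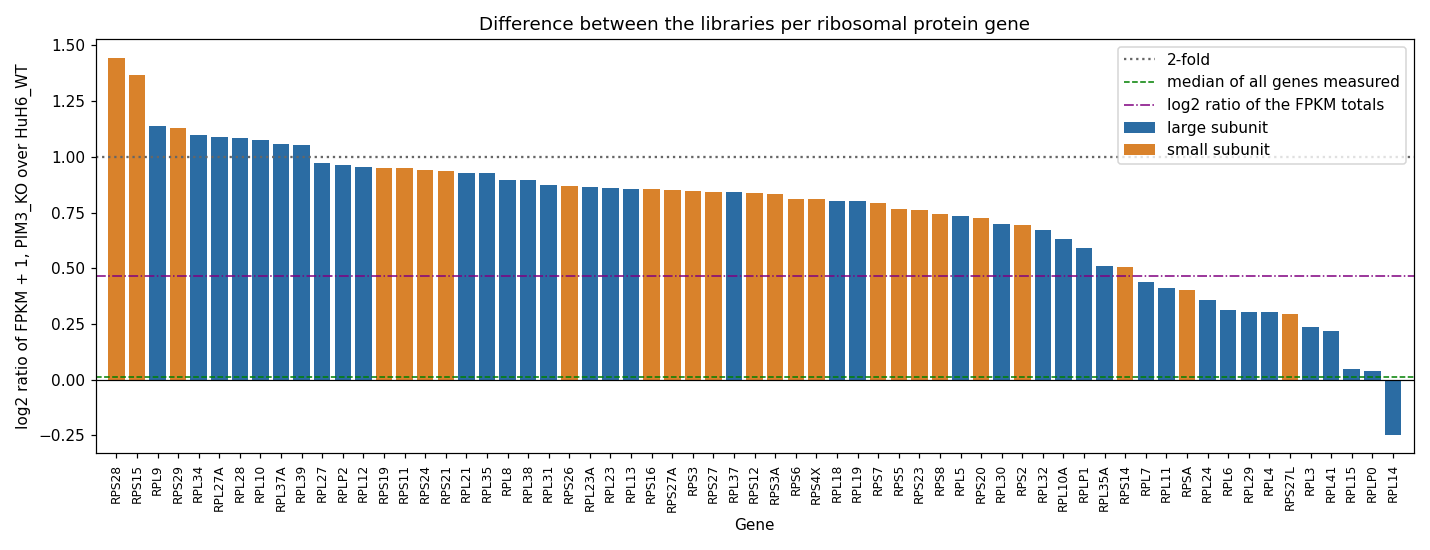
Bars give the log2 ratio of FPKM + 1, PIM3_KO over HuH6_WT, for 63 of the 64 measured ribosomal protein genes in order of size, coloured by subunit, from 1 library per group. RPS28 at 1.44 stands at one end and RPL14 at -0.25, the only negative bar, at the other. The dotted line marks 2-fold, the dashed line the median of all genes (0.01), and the dash-dotted line the log2 ratio of the FPKM totals (0.46), below which a bar turns negative under TPM.

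The ribosomal protein genes held 19.9% of all FPKM in HuH6_WT and 24.1% in PIM3_KO. Since FPKM is a value per length, these are shares of transcripts rather than of reads. The members' sum was 156693 FPKM in HuH6_WT and 261908 FPKM in PIM3_KO, which is 1.67-fold, while the sum of all other rows had a ratio of 1.31. Other abundant genes were also higher in the knockout library. Among the 286 other coding genes that averaged 300 FPKM or more, the log2 ratios had a median of 0.50 (0.03 under TPM).

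The order of the members by level was largely kept between the libraries. In HuH6_WT the highest levels per length were those of RPL14 (7314 FPKM), RPL5 (6128 FPKM), RPLP0 (5671 FPKM), RPL8 (5639 FPKM) and RPS3 (5322 FPKM). In PIM3_KO they were those of RPL8 (10497 FPKM), RPL5 (10186 FPKM), RPS3 (9559 FPKM), RPS19 (8332 FPKM) and RPL31 (7860 FPKM). Across the 64 genes the log2 levels of the 2 libraries had a Pearson correlation of 0.96 and a Spearman correlation of 0.94, a description of genes that share both libraries and 1 pipeline. RPL14, an RNA-binding protein of the large subunit, moved from rank 1 to rank 13 among the 67 members, and RPLP0 from rank 3 to rank 15. RPS28 moved the other way, from rank 52 to rank 34, and 9 members in all changed rank by more than 10 places.

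The 61 measured members other than RPS27L, RPL39 and RPL41 lay between 591 and 7314 FPKM in HuH6_WT, a 12.4-fold range, and between 1080 and 10497 FPKM in PIM3_KO, a 9.72-fold range. The lower end was RPS26, which sits where mRNA leaves the small subunit, at 591 and 1080 FPKM. RPL41, the shortest member at 25 codons, measured 62.7 and 73.2 FPKM, about 478 and 438 estimated reads. RPL39, which lines the exit tunnel and has 51 codons, measured 151 and 315 FPKM, about 863 and 1408 estimated reads. Per-length values of such short mRNAs rest on few possible read positions and are less certain.

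**Figure D2:**
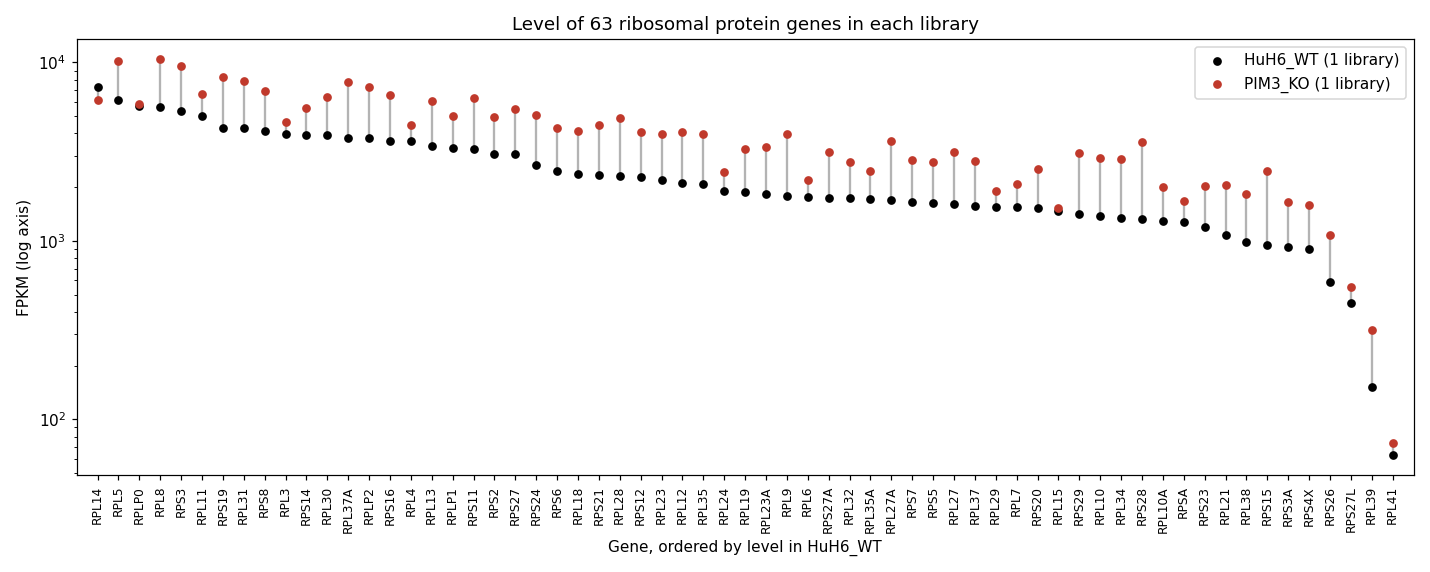
Points give the level in FPKM (log axis) of 63 of the 64 measured ribosomal protein genes in HuH6_WT (black) and PIM3_KO (red), ordered by the HuH6_WT level, with a line joining the values of a gene. The red point lies above the black one for 62 genes (the order flips under TPM for 12 of them) and below it for RPL14, and RPL39 and RPL41 lie far below the others.

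Among the proteins of the small subunit, the largest differences belonged to RPS28 and RPS15. RPS28, which lies beside the mRNA exit, stood at 1318 FPKM in the parental and 3590 FPKM in the knockout library, giving a log2 ratio of 1.44. Its gene (ENSG00000233927.4) spans positions 8321158 to 8323340 on the plus strand of chromosome 19 in GRCh38. RPS15, whose tail reaches the decoding centre, measured 952 and 2455 FPKM, a log2 ratio of 1.37. RPS29, a small zinc-binding protein, followed at 1422 and 3108 FPKM (1.13). Others at the mRNA path were less far apart, with the decoding-centre protein RPS23 at 1197 and 2026 FPKM (0.76), RPS2 at 3050 and 4928 FPKM (0.69) and RPS3 at 5322 and 9559 FPKM (0.84).

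RPS6, the classic substrate of the S6 kinases, measured 2452 and 4298 FPKM, a log2 ratio of 0.81. RPS27A, made as a fusion of ubiquitin and a small subunit protein, measured 1736 and 3129 FPKM (0.85). RPSA, also known as a laminin receptor, had the smallest difference among small subunit genes after RPS27L, at 1270 and 1677 FPKM (0.40, and below 0 under TPM). RPS14, whose loss causes the anaemia of the 5q- syndrome, measured 3931 and 5578 FPKM (0.50).

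In the large subunit the members at least 2-fold higher included RPL9, RPL34, RPL27A, RPL28, RPL10, RPL37A and RPL39. RPL9 measured 1796 and 3957 FPKM, a log2 ratio of 1.14. RPL34 measured 1349 and 2885 FPKM (1.10), RPL28 2304 and 4889 FPKM (1.09), and RPL37A 3754 and 7811 FPKM (1.06). RPL10, which joins late in assembly with the export adaptor NMD3 and completes the catalytic core, measured 1379 and 2905 FPKM (1.07). RPL39, at 1.05, was the member just past 2-fold, and RPL27, at 1605 and 3153 FPKM (0.97), the member just short of it.

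At the other end stood RPL14, RPLP0, RPL15, RPL41 and RPL3. RPL14 stood at 7314 FPKM in the parental and 6165 FPKM in the knockout library, giving a log2 ratio of -0.25, and was the only measured member with a lower value in the knockout library. Its gene (ENSG00000188846.13) spans positions 40457292 to 40468587 on the plus strand of chromosome 3. RPL15 measured 1478 and 1527 FPKM (0.05). RPL3, which reaches into the peptidyl transferase centre, measured 3959 and 4665 FPKM (0.24). RPL4, RPL6 and RPL29 lay close together, at 0.30, 0.31 and 0.30.

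Members that work side by side in the ribosome did not all differ alike. The P stalk recruits the elongation factors and is built of RPLP0 with dimers of RPLP1 and RPLP2. RPLP0, its base, measured 5671 and 5821 FPKM (0.04), RPLP1 3305 and 4983 FPKM (0.59) and RPLP2 3754 and 7318 FPKM (0.96). Of the 5S RNA partners, RPL5 measured 6128 and 10186 FPKM (0.73) and RPL11 5014 and 6676 FPKM (0.41). At the exit tunnel, RPL19, RPL23A, RPL31 and RPL35 had log2 ratios of 0.80, 0.87, 0.88 and 0.93, RPL39 had 1.05, and RPL4, whose loop lines the tunnel, had 0.30.

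Taken by subunit, the medians were 0.0018 apart. The 39 measured large subunit genes and the 25 small subunit genes each had a median log2 ratio of 0.84. The spread was wider in the large subunit, from -0.25 to 1.28 with an SD of 0.36, than in the small one, from 0.29 to 1.44 with an SD of 0.24. Whether the spreads differ was not tested.

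Mutations in some ribosomal protein genes cause Diamond-Blackfan anaemia, a failure of red cell production. Of 17 such genes 14 were measured, all 14 with ratios above 0 (12 under TPM, where RPL11 and RPL15 fall below it) and a median of 0.87 (0.41 under TPM). RPS28 and RPS29 were the 2 that reached 2-fold, and neither did under TPM. Of all 64 measured members, 11 reached 2-fold (0 under TPM) and 63 had ratios above 0 (51 under TPM). Of all genes, 6.89% reached 2-fold (2.87% under TPM) and 51.0% had ratios above 0 (26.1% under TPM). RPS19, the gene most often mutated, measured 4309 and 8332 FPKM (0.95), RPL35A 1723 and 2457 FPKM (0.51), and RPL15 stood lowest.

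Paralogs, related copies of ribosomal protein genes of which some replace the other copy in certain tissues, differed widely in level. RPS27L, a p53 target related to RPS27, measured 447 and 549 FPKM (0.29, and -0.17 under TPM), beside RPS27 at 3049 and 5464 FPKM (0.84). RPL3L, the heart and skeletal muscle form of RPL3, measured 0.0181 and 0.254 FPKM. This was about 1 and 11 estimated reads, a 14.0-fold ratio with an exact 95% interval of 2.04 to 604 that covers counting error only. The testis-enriched RPL39L measured 0.0781 and 0.0995 FPKM, about 1 read in each library, and RPL10L 0.0617 FPKM in HuH6_WT, about 1 read, and was listed at 0 in PIM3_KO, where 3 reads would amount to 0.220 FPKM. These 3 were the members that did not reach a mean of 1 FPKM.

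Further paralogs outside the naming rule were RPL36AL at 251 and 530 FPKM (1.08), RPL22L1 at 73.9 and 143 FPKM (0.94), RPL26L1 at 39.6 and 56.9 FPKM (0.51) and RPL7L1 at 21.3 and 26.4 FPKM (0.29). Each had a higher value in the knockout library, but under TPM RPL7L1 turned to -0.15.

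The 15 matching symbols without a row of their own comprised 11 in rows joined with neighbouring genes and 4 in several rows. All 10 joined rows with a mean of at least 1 FPKM had ratios above 0 (51.0% of all genes), with a median of 0.87. Under TPM 8 of the 10 stayed above 0, and the rows of RPL22 (-0.12) and RPS13 (-0.05) did not. The row of RPL36 and HSD11B1L was the only one past 2-fold, at 876 and 2224 FPKM, and that of RPL22, CHD5 and AL031847.2 the nearest to equality, at 105 and 133 FPKM (0.35). FAU, made as a fusion of a ubiquitin-like protein with a small subunit protein, shared a row with SYVN1 at 914 and 1815 FPKM (0.99). RPL7A, RPS18 and RPS25 were listed at 0 in each of their rows, and RPS9 reached 0.285 and 0.968 FPKM in 1 of 10 rows. Since cells need these proteins, such values say nothing of their expression.

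Processed pseudogenes, copies of the mRNAs inserted elsewhere in the genome, can take reads from their parent genes. The table had 879 rows named as pseudogenes of the members, of which 85 reached a mean of 1 FPKM. Their sum amounted to 0.371% of the members' FPKM in HuH6_WT and 0.355% in PIM3_KO. The pseudogenes of RPL39 stood out against their parent, with 21.1 and 82.5 FPKM in all beside 151 and 315 FPKM for RPL39. The sources used here do not say how reads that fit several copies were shared out.

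The sequences at the start sites show the tract that most of these mRNAs have in common. RefSeq start windows of GRCh38.p14, 250 bases before to 50 bases after the annotated start, were at hand for 52 of the 67 members. The lines below give 30 bases before and 30 from the start onward, on the gene's strand, for the 4 highest and the 4 lowest measured ratios among these members. Capitals mark a C followed by at least 5 pyrimidines, taken from the C nearest the annotated start and within 10 bases of it, to the end of the run, which can reach further upstream than the capitals.
RPS28 (chr19:8321466-8321525, plus strand): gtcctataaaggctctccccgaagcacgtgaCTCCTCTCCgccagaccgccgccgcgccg
RPS15 (chr19:1438366-1438425, plus strand): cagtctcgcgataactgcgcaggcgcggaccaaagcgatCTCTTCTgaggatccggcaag
RPL9 (chr4:39458893-39458952, minus strand): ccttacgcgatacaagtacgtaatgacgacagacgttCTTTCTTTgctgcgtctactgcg
RPS29 (chr14:49598681-49598740, minus strand): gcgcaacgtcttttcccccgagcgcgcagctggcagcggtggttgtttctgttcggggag
RPL41 (chr12:56116603-56116662, plus strand): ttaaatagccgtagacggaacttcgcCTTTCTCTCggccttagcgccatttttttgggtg
RPL15 (chr3:23917102-23917161, plus strand): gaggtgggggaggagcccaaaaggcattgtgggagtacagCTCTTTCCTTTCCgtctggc
RPLP0 (chr12:120201082-120201141, minus strand): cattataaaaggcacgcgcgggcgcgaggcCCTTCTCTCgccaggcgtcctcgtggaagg
RPL14 (chr3:40457309-40457368, plus strand): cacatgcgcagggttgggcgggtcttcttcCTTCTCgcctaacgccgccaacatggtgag

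The tract was present at both ends of the order of ratios: in RPL14 and RPLP0 the pyrimidine run spans the annotated start, and in RPS28 the tract begins at the next base. RPL15 has 3 annotated starts, of which 1 is shown, and the 1 window of RPS29 held no such tract. That window lies near the upstream end of the RPS29 gene, which spans positions 49570984 to 49599164 and overlaps LRR1 on the other strand. It need not hold the start in use, so whether the expressed RPS29 mRNA has a tract is not shown here. Of the 67 windows of members 48, or 71.6%, held the tract, against 20.8% of all 35116 windows and 21.1% of those of other coding genes. Among the 51 measured members with a window, the median log2 ratio was 0.84 for the 44 with a tract there and 0.81 for the 7 whose windows held none. The 7 were RPL3, RPL6, RPL27, RPS4X, RPS26, RPS27L and RPS29.

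Other motifs were searched over the whole window on both strands, with overlaps between motifs allowed. The ETS core CCGGAAG was in 32.8% of the members' windows, against 10.3% of all windows and 16.7% of those of other measured coding genes. The E box CACGTG, which MYC binds, was in 4.48%, against 7.26% and 9.48%, and AAGATGG, the core of the YY1 motif, in 8.96%, against 5.84% and 7.34%. For the other motifs the direction depended on the comparison. The GC box GGGCGG was in 56.7%, against 45.0% of all windows but 66.6% of those of other measured coding genes, and the TATA box TATAAA in 7.46%, against 11.5% but 6.13%. The windows of RPS28 and RPLP0 printed above hold TATAAA, and that of RPS28 holds CACGTG. The median log2 ratio was 0.81 for the 18 members with the ETS core and 0.85 for the 33 without. These letters are matches in a window and not measured binding.

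Coding length went with the ratios. The median log2 ratio was 0.87 for the 17 measured members under 120 codons, also 0.87 for the 27 from 120 to under 200 codons, and 0.71 for the 20 of 200 codons or more. Other coding genes showed lower values in each class, with 0.46 over 341 genes, 0.28 over 852 genes and -0.06 over 8439 genes. Across members the Spearman correlation of the ratio with coding length was -0.38 (Pearson -0.30, 64 genes that share both libraries), and across other coding genes -0.26. After the trend with coding length over all coding genes was taken off, the members' median was 0.54. Then 2 members, RPS15 among them, stayed past 2-fold, and 6 members lay below 0. The same counts for other genes after this fit are not given, so these have no background. The part that length plays in the members' difference was not tested.

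**Figure D3:**
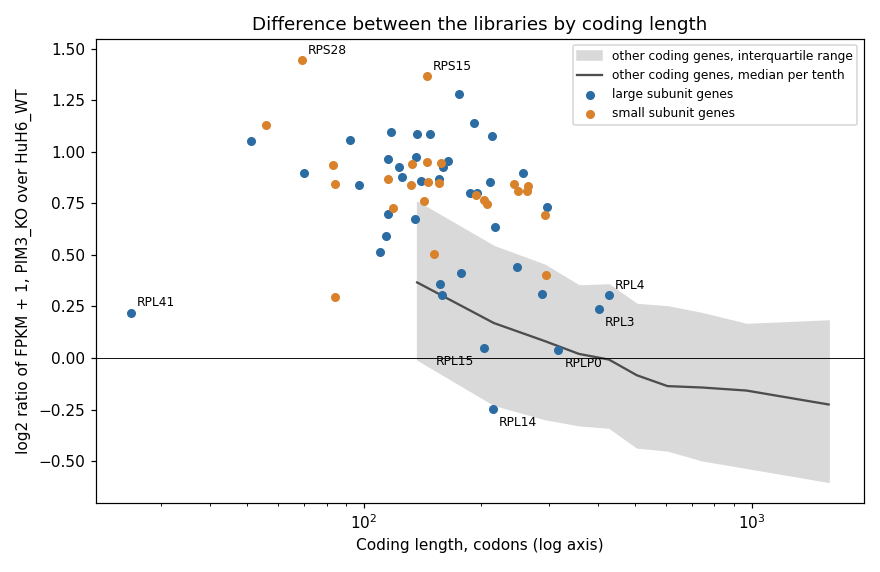
Points give the log2 ratio of FPKM + 1, PIM3_KO over HuH6_WT, of the 64 measured ribosomal protein genes against coding length in codons (log axis), coloured by subunit. The line and band give the median and interquartile range of other coding genes in 10 equal groups by coding length, whose medians run from 0.37 to -0.23. The line begins at 137 codons, the median length of the first group. Most members longer than that lie above it, and RPL14, RPLP0 and RPL15 lie below the line or near it.

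The chromosome on which a member lies also went with its ratio. All 7 measured members on chromosome 3 (RPL14, RPL15, RPL24, RPL29, RPL32, RPL35A and RPSA) lay below the median of all members, with a median of 0.36 and a range from -0.25 to 0.67. The 547 other coding genes measured on chromosome 3 had a median of -0.30, the lowest of the chromosomes that carry a measured member. On chromosome 15, RPL4, RPLP1 and RPS27L had 0.30, 0.59 and 0.29, and the other coding genes a median of -0.24. Of the 9 members on chromosome 19, 7 lay above the median of all members, RPS28 and RPS15 among them, and the 669 other coding genes there had a median of 0.27, the highest.

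Chromosome 12 stood apart from this order. RPL6, RPL41 and RPLP0 had ratios of 0.31, 0.22 and 0.04 although the other coding genes there had a median of -0.04, and RPS26, on the same chromosome, had 0.87. Across the 64 members, the Pearson correlation between the ratio and the median of other coding genes on the same chromosome was 0.67 (Spearman 0.66). With that median subtracted, the SD of the members' ratios was 0.25 instead of 0.32, RPL14 had 0.05 and RPLP0 0.08. All 64 values were then above 0 and 10 reached 2-fold, with no count of other genes under the same adjustment to compare. For the 40 coding genes nearest to a member, 20 on each side, the median was -0.26 around RPL14, 0.42 around RPS28 and 0.54 around RPS15. Copy number was not measured, and its part in these differences was not tested.

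**Figure D4:**
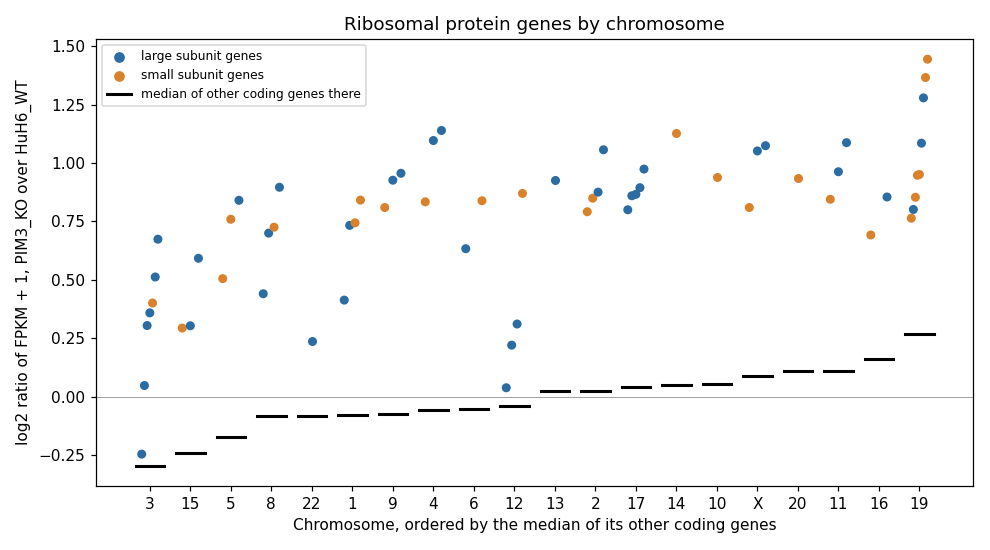
Points give the log2 ratio of FPKM + 1, PIM3_KO over HuH6_WT, of the 64 measured ribosomal protein genes, coloured by subunit, and bars the median of the other measured coding genes on the same chromosome. Chromosomes are ordered by that median, from -0.30 on chromosome 3 to 0.27 on chromosome 19, and every point lies above its bar.

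Other RNAs with a TOP start differed less than the ribosomal protein genes on the median. Of 23 listed genes 19 were measured, 16 of them with ratios above 0 (51.0% of all genes). Their median was 0.26 (-0.20 under TPM), against 0.84 (0.38) for the members. SNHG5, a snoRNA host, was the only one past 2-fold (6.89% of all genes), at 254 and 568 FPKM (1.16), and under TPM there was none. The elongation factor gene EEF1A1 measured 3948 and 3568 FPKM (-0.15), the poly(A)-binding PABPC1 11462 and 11083 FPKM (-0.05), and the initiation factor gene EIF4B 280 and 238 FPKM (-0.23). RACK1, a scaffold bound to the small subunit, measured 6097 and 10136 FPKM (0.73). Another snoRNA host, GAS5, measured 635 and 1182 FPKM (0.89).

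The mitochondrial ribosome has its own, nuclear-encoded proteins. Of these 59 genes, all measured, 10 exceeded 2-fold in favour of PIM3_KO (6.89% of all genes) and 0 in favour of HuH6_WT, with 54 ratios above 0 (51.0% of all genes) and a median of 0.55. Under TPM only MRPL54 stayed past 2-fold, 35 ratios lay above 0 (26.1% of all genes) and the median was 0.09. The highest were MRPL54 at 28.4 and 87.0 FPKM (1.58), MRPL55 at 63.4 and 175 FPKM (1.45) and MRPL14 at 59.8 and 141 FPKM (1.22). The lowest were MRPL49 at 29.2 and 21.3 FPKM (-0.44), MRPL19 (-0.31) and MRPS27 (-0.30). The 2 kinds of ribosome thus had the same direction on the median, with a wider range in the mitochondrial list.

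Genes that control or escort ribosomal proteins showed no common direction before rescaling. Under TPM the medians of the 4 lists ran from -0.50 to -0.24, around the median of -0.40 over all genes. Ratios above 0 under TPM were then 3 of 13 for regulators of TOP translation and S6 kinase and 0 of 5 for 5S RNP and p53 surveillance. They were 2 of 9 for chaperones and assembly factors and 4 of 9 for modifiers and quality control factors (26.1% of all genes). Of the 13 measured regulators of TOP translation and S6 kinase, 7 had ratios below 0 before rescaling, with a median of -0.04. At least 2-fold higher was 1 of them (6.89% of all genes). EIF4EBP1, a translation repressor under mTOR, measured 107 and 267 FPKM (1.31), RPS6KB2 25.5 and 41.7 FPKM (0.69) and the mTOR activator RHEB 75.4 and 107 FPKM (0.50). RPTOR measured 10.8 and 6.09 FPKM (-0.73), LARP1, which binds the TOP start, 69.9 and 42.1 FPKM (-0.72) and MTOR 27.5 and 17.0 FPKM (-0.66). Under TPM none of the 13 was 2-fold higher, and RPTOR, LARP1, MTOR and TSC1, an inhibitor of mTOR signalling, were at least 2-fold lower (14.4% of all genes). The 5 measured genes of 5S RNP and p53 surveillance lay between -0.12 and 0.27, with MDM2 at 455 and 462 FPKM, CDKN1A at 128 and 118 FPKM and RPF2 at 25.7 and 31.3 FPKM.

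Among 9 measured chaperones and assembly factors the median was 0.21 and none was 2-fold different. Under TPM NMD3 and IPO7 were at least 2-fold lower (14.4% of all genes). NOP53 measured 846 and 1450 FPKM (0.78), BCCIP, which escorts RPL23, 81.9 and 129 FPKM (0.65), and TSR2, which escorts RPS26, 14.5 and 19.7 FPKM (0.42). NMD3, the export adaptor that receives RPL10, measured 29.99 and 15.98 FPKM (-0.87), the importin gene IPO7 59.3 and 32.1 FPKM (-0.87) and PDCD2 52.5 and 40.9 FPKM (-0.35). Of 9 modifiers and quality control factors 2 were at least 2-fold higher (6.89% of all genes), of which RIOX1 stayed so under TPM (2.87% of all genes). They were RIOX1, which hydroxylates RPL8, at 0.358 and 2.7 FPKM (1.45) and NEMF, which marks stalled chains, at 28.4 and 72.4 FPKM (1.32). OTUD6B (-0.51), LTN1 (-0.31) and RIOX2 (-0.15) stood at the other end, and the median was 0.06.

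**Figure D5:**
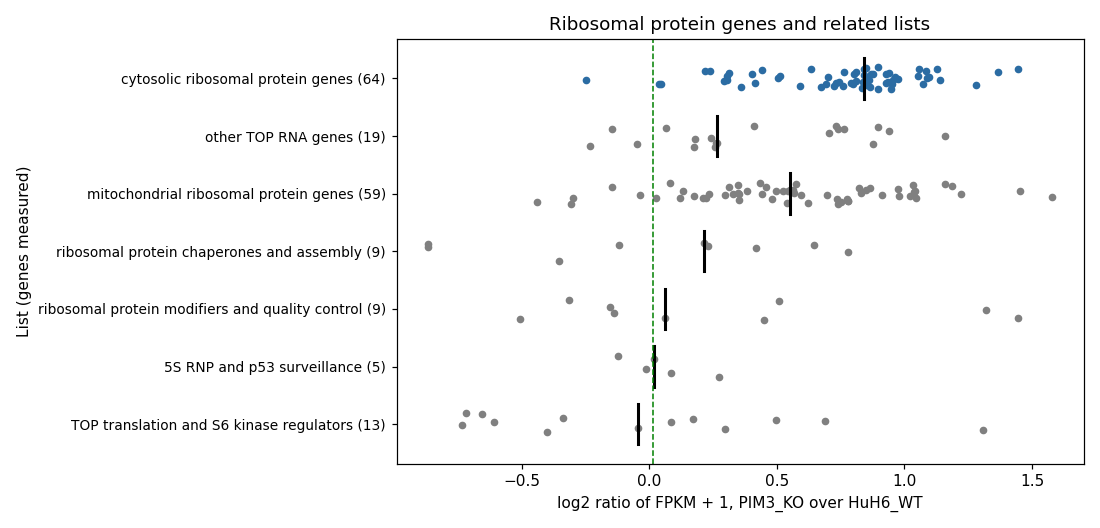
Points give the log2 ratio of FPKM + 1, PIM3_KO over HuH6_WT, of each measured gene in the cytosolic ribosomal protein genes and 6 related lists, with the number measured in brackets and a bar at each median. The dashed line is the median of all genes measured (0.01). The medians run from 0.84 for the cytosolic ribosomal protein genes and 0.55 for the mitochondrial ones to -0.04 for the regulators of TOP translation. Under TPM only the medians of the 2 kinds of ribosomal protein genes (0.38 and 0.09) lie above 0, while that of all genes is -0.40.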

How the data were processed

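Poly(A) RNA of 1 HuH6_WT and 1 PIM3_KO library was sequenced as single-end 75 bp reads from a directional kit, per the labels' protocols. The submitters' processing notes name STAR 2.7.3a, Cufflinks 2.2.1, bcl2fastq 2.18.0.12 and the build GRCh38. The authors deposited FPKM values in a table of 62571 rows, of which 1736 joined several symbols. The annotation, strand setting and filters were not given in the sources used here, and 24 measured members overlap a coding gene on the opposite strand, so antisense reads cannot be told apart.

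Log2 ratios used a pseudocount of 1, which understates differences of low genes, and genes averaging 1 FPKM or more. Called means at least 2-fold. With 1 library per group there is no test. Members and lists were chosen with earlier results of these data known, and the role groups (P stalk, exit tunnel, mRNA path) after their values were seen.

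Single-exon genes with 1 transcript, from 600 up to 5000 bp long, gave the value of 1 read. With 200 bp taken off their length, 96.4% and 96.5% of those under 20 reads lay within 0.05 of a whole number. Estimated reads of other genes are approximate, so none was tested. Positions, lengths and codons came from GENCODE 29, which matched 98.5% of measured genes, with the shortest principal transcript of each gene. Alternatives were pseudocounts of 0.1 and 5, filters, TPM, centring and lowess fits (fraction 0.3) on transcript length. The fit on coding length, chromosome medians and omissions were added after seeing the data. Named were all members past 2-fold, the 8 highest and lowest ratios, the 5 highest and lowest levels, fixed roles and paralogs, and the 3 highest and lowest of each other list. RPS2, RPS14, RPS23, RACK1, TSC1, the joined rows, the pseudogenes of RPL39, members of the exit tunnel and those listed by chromosome were named after their values were seen. Code was tested on simulated data. Python 3.11.15, pandas 2.3.3 and statsmodels 0.14.6 were used. Results for a few genes are not reported here by name, though the counts and medians include them.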

Additional observations from a re-analysis of the deposited data

How the results depend on the processing

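The median of the members (0.84) moved to 0.38 under TPM, 0.30 with the fit on transcript length and 0.54 with the fit on coding length. The count of members at least 2-fold higher (11) moved to 0, 4 and 2 with these, in the same order. The 4 past 2-fold with the fit on transcript length were RPL27A, RPL37A and RPS28 of the 11 and RPL37, which had not been among them. Their annotated transcripts of 4916, 7686, 3647 and 1326 bp (for RPL27A, RPL37, RPL37A and RPS28) need not be those expressed. Between 0.82 and 0.85 lay the member median with other pseudocounts, filters, centring, chromosome medians, and with joined rows added or paralogs, chromosome 3 or RPL39 and RPL41 left out, and 10 or 11 members were then at least 2-fold higher wherever that count was made. The subunit medians differed by -0.04 with no filter. No member was at least 2-fold lower under any setting tried. The median of other TOP RNAs (0.26) moved to -0.20 under TPM and 0.14 with the fit on transcript length.

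Over all genes, 775 were at least 2-fold higher and 516 lower, or 60.03% higher. The counts were 323 and 1622 under TPM, or 16.6% higher, and 399 and 172 with a pseudocount of 5. With a pseudocount of 0.1, 812 were lower, and 425 were higher with the fit on transcript length, which covers coding genes and the listed TOP RNAs. The members' share of FPKM (19.9% and 24.1%) was 23.5% and 28.8% of coding genes with 1 row, and 19.1% and 23.2% without RPL5, the most abundant member on average.

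Counting error hardly limits the abundant members, since RPL41 and RPL39 aside the fewest estimated reads were the 3873 and 6636 of RPS29. The spread between cultures is unknown. No paired analysis was possible because each group has 1 library and no test was made.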
